A study of Mus musculus with 25 samples.

Results

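Inguinal white adipose tissue (iWAT), the subcutaneous fat pad of the groin, was compared between wild type mice fed a high-fat diet (HFD) and wild type mice fed a normal chow diet (ND). Every library labelled as wild type iWAT was taken, 5 on HFD and 3 on ND, which makes 8 of the 25 RNA-seq libraries of the series. The mice were C57BL/6N males (written C57BL/6NJ in the treatment notes) and carried no deletion of *Acod1*, the gene removed in other mice of the study. The HFD, in which fat supplied 60% of calories, began at 5 weeks of age and lasted 16 weeks, and the ND libraries carry the same 16-week label. The study's methods state that mice were caged singly from 5 weeks of age, and the labels that tissue was snap frozen, so each library holds the RNA of every cell type in the piece of pad that was taken. Of 54752 genes in the files, 14804 had a mean of at least 1 CPM (counts per 1000000 reads counted on genes) over the 8 libraries and were tested. The CPM printed for single genes are further scaled between libraries by the TMM factors of edgeR. Those of summed gene lists are not.

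White adipocytes store triglyceride in 1 large droplet. They take fatty acids from lipoproteins through lipoprotein lipase, make some from glucose, and release them when noradrenaline acts on their β-adrenergic receptors. When calories exceed need the adipocytes enlarge, leptin rises, the matrix around the cells is remodelled and macrophages gather around dying adipocytes. Inguinal fat also holds beige adipocytes, which make heat through uncoupling protein, and it encloses a lymph node.

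The ND libraries held 37860966 to 46163603 reads counted on genes and the HFD libraries 39137942 to 48980271. In a principal component analysis of log2 CPM the first component held 70.5% of the variance and set the 3 ND libraries (-107 to -100.3) apart from the 5 HFD libraries (33.3 to 83.8), of which HFD 5 lay nearest to ND. Column headers give library numbers in 2 series, with all ND libraries and HFD 5 in one and HFD 1 to 4 in the other. A fit with this series as a term therefore compares HFD 5 alone with ND, and its counts are given beside those of the 8 libraries. The study describes the libraries as coming from separate mice of a single experiment, so the p-values measure the spread between the mice of that experiment. Mitochondrially encoded genes took 8.97% ± 2.41 of counts on ND (SD, n = 3) and 6.64% ± 0.785 on HFD (SD, n = 5), which an exact two-sided permutation test did not separate (p = 0.143, 0.286 after adjustment over the 2 shares tested). The 10 most abundant genes took 14.99% ± 2.43 and 14.8% ± 0.845 (exact permutation p = 0.929, adjusted 0.929). Adipocyte markers were abundant in every library, among them *Adipoq*, the gene of adiponectin, at 1951, 1855 and 1916 CPM on ND and 2553, 3231, 2949, 2551 and 2749.5 on HFD.

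With edgeR's quasi-likelihood test and Benjamini-Hochberg adjustment over all genes, 4139 genes were called higher on HFD (28.0% of those tested) and 4382 lower (29.6%) at an adjusted p under 0.1. Changes of at least 2-fold were found in 1490 of the former and 1669 of the latter, and changes of at least 8-fold in 281 and 503. The groups did not overlap in 3417 genes that were higher (23.1%) and 3602 that were lower (24.3%). With the header series as a term, 2063 genes were called higher (13.9%) and 1810 lower (12.2%). For HFD 1 to 4 the series and the diet cannot be told apart. The counts for each gene list are to be read against the shares of all genes, since a list with a like share of members called in a direction is like the rest of the genome. Some genes stand in several lists, so the counts of different lists are not independent of each other. In bulk tissue, more cells of a type and more RNA of its genes per cell cannot be told apart.

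**Figure D1:**
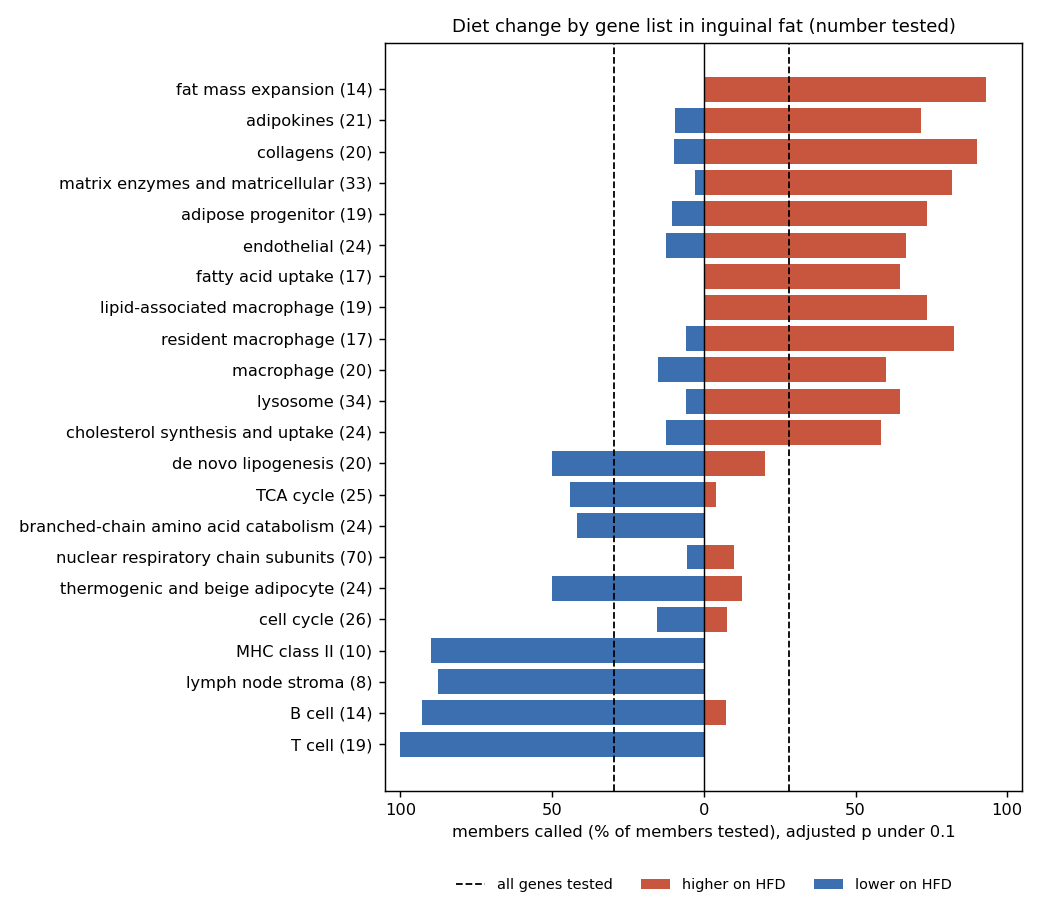
Members of 22 gene lists called higher (red, to the right) or lower (blue, to the left) on HFD in inguinal fat, as a percentage of the members tested (number in parentheses; edgeR, adjusted p under 0.1). Dashed lines mark the shares over all genes tested, 28.0% higher and 29.6% lower. The fat expansion and collagen lists extend furthest to the right and the T and B cell lists furthest to the left.

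Most genes of a list known to follow fat mass were higher on HFD. *Mest* is an imprinted gene of the endoplasmic reticulum. *Mest* (chr6:30723547-30748465, GRCm38) measured 50.7, 6.13 and 10.4 CPM on ND and 1303, 2028, 1854, 1341 and 1352 CPM on HFD (log2 fold change 6.14 ± 0.77, adjusted p = 0.000379). *Lep* (chr6:29060220-29073877), the gene of the satiety hormone leptin, measured 637, 241 and 362 CPM on ND and 4331, 5926, 4835, 5039 and 4757 CPM on HFD (log2 fold change 3.59 ± 0.32, adjusted p = 0.000106). Per length of transcript, *Lep* moved from rank 301 to rank 24 among protein-coding genes by mean FPKM, from 132 to 1423, while *Adipoq* kept rank 16. *Sfrp5*, a secreted Wnt antagonist made by adipocytes, measured 86.2, 10.3 and 23.1 CPM on ND and 446, 487, 494, 315 and 482 CPM on HFD (log2 fold change 3.48 ± 0.64, adjusted p = 0.00212). In each of these 3 genes no HFD library overlapped with ND, and ND 1 was the highest of the ND libraries, as it was in all 14 tested genes of this list.

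Of the 14 tested genes of the fat mass expansion list, 13 were called higher and 0 lower, with a median log2 fold change of 2.82, against -0.03 over all genes, and 14 were higher with the header series as a term. *Tph2*, the neuronal tryptophan hydroxylase of serotonin synthesis, measured 1.49, 0.218 and 0.466 CPM on ND and 168, 122, 107, 156 and 34.4 CPM on HFD (log2 fold change 7.37 ± 0.80, adjusted p = 0.000209). *Npr3*, the clearance receptor of natriuretic peptides, measured 465, 107 and 190.3 CPM on ND and 1598, 1851, 1867, 1836 and 2266 CPM on HFD (log2 fold change 2.89 ± 0.44, adjusted p = 0.000868). The diets did not overlap in either gene, and HFD 5 had the least *Tph2* and the most *Npr3* of the HFD libraries. *Fgf13* (3.15 ± 0.30), *Bmp3* (2.75 ± 0.33), *Mmp12* (3.53 ± 0.70), *Trp53inp2* (2.28 ± 0.20), *Vldlr*, the receptor of very low density lipoprotein (1.54 ± 0.19), *Cav1*, the coat protein of caveolae (1.23 ± 0.12), *Sncg* (1.52 ± 0.19) and the imprinted *Peg3* (1.47 ± 0.41) were also called higher (log2 fold change ± SE, here and wherever a gene is followed by such a pair). *Nnat*, another imprinted gene, was the list's member that did not pass (log2 fold change 0.41 ± 0.35, adjusted p = 0.348).

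**Figure D2:**
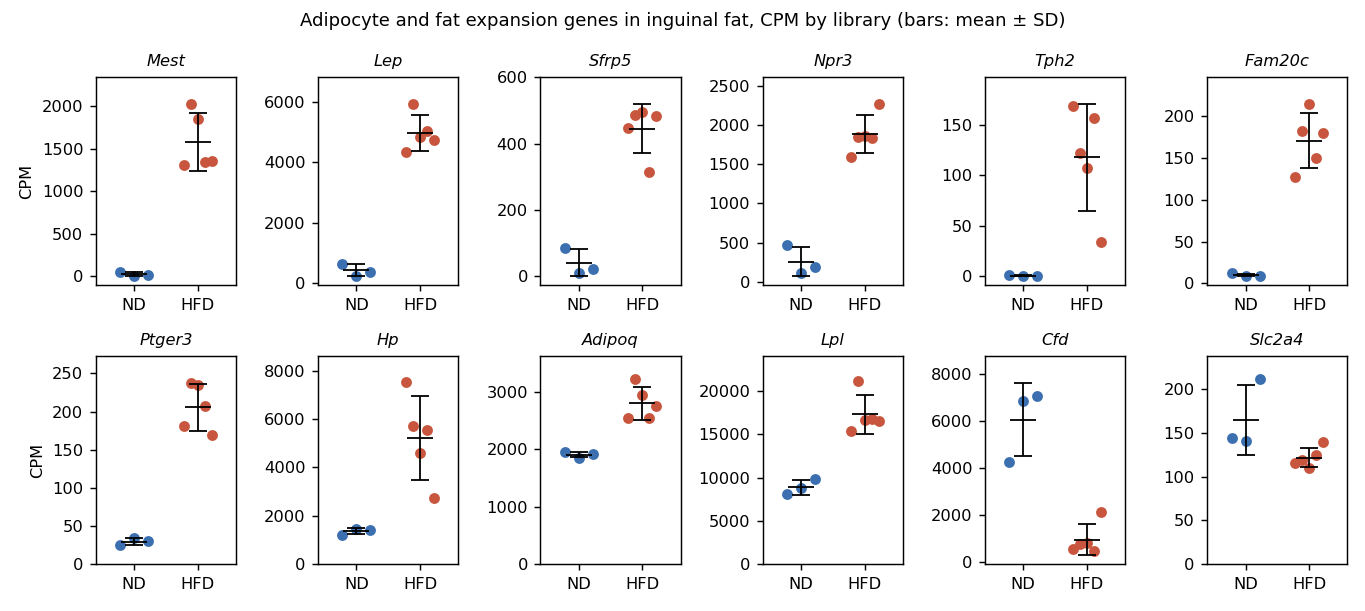
Expression in CPM (vertical axes, each including 0) of 12 adipocyte genes in the 3 ND libraries (blue) and the 5 HFD libraries (red) of inguinal fat, with the mean and SD of each group. *Mest*, *Lep*, *Sfrp5*, *Npr3*, *Tph2*, *Fam20c*, *Ptger3* and *Hp* lie wholly above ND on HFD, *Adipoq* and *Lpl* by a smaller step, while *Cfd* and *Slc2a4* lie wholly below.

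Other precisely measured increases lay outside this list. The 5 higher genes with the smallest adjusted p were *Slc16a12*, a monocarboxylate transporter family member, *Fam20c*, the Golgi kinase that phosphorylates secreted proteins, *Ptger3*, a prostaglandin E receptor coupled to inhibition of lipolysis, *Jpt2* and *Unc79*, a subunit of the sodium leak channel. *Fam20c* measured 11.8, 8.85 and 8.97 CPM on ND and 127, 182, 214, 149.8 and 179.8 CPM on HFD (log2 fold change 4.11 ± 0.21, adjusted p = 6.44e-05). *Slc16a12* measured 11.1, 8.79 and 8.72 CPM on ND and 69.1, 96.5, 89.7, 81.4 and 73.2 CPM on HFD (log2 fold change 3.10 ± 0.16, adjusted p = 6.44e-05). *Ptger3* measured 24.9, 33.5 and 29.7 CPM on ND and 181, 238, 235, 208 and 169 CPM on HFD (log2 fold change 2.81 ± 0.17, adjusted p = 7.39e-05). In all 3 the spread within a diet was small beside the gap between diets. *Unc79* had at most 1 count in any ND library and 15.7, 18.6, 20.6, 8.76 and 11.9 CPM on HFD (adjusted p = 7.39e-05). Among genes with at least 5 CPM on both diets, the 12 largest increases included, beside *Mest* and *Fam20c*, *Ncan* (4.17 ± 0.69), *Crtac1* (3.90 ± 0.39), *Ubd*, a ubiquitin-like protein (3.84 ± 0.37), *Pcolce2*, which enhances procollagen processing (3.73 ± 0.41), *Tuba1a* (3.50 ± 0.26) and *Marc1* (3.39 ± 0.31). This group with a minimum on both diets was chosen after its values had been seen.

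Adipokines, the proteins that fat secretes into blood, were mostly higher on HFD: 15 of 21 were called higher and 2 lower, with a median of 1.21 (11 and 2 with the header series as a term). *Saa3*, an acute phase apolipoprotein, measured 0.791, 0.535 and 0.280 CPM on ND and 55.3, 13.7, 17.4, 18.9 and 7.54 CPM on HFD (log2 fold change 5.39 ± 0.77, adjusted p = 0.000679). *Hp*, the gene of haptoglobin, measured 1217, 1452 and 1398 CPM on ND and 7509, 5700.1, 4596, 5562 and 2728 CPM on HFD (log2 fold change 1.94 ± 0.29, adjusted p = 0.000862). HFD 1 had the highest level of both and HFD 5 the lowest. *Metrnl*, the gene of meteorin-like, was higher as well (2.52 ± 0.31), and *Adipoq* by a smaller step (log2 fold change 0.56 ± 0.12, adjusted p = 0.00422). The members called lower were *Nampt* (-0.81 ± 0.21), the NAD salvage enzyme, and *Cfd*. *Cfd*, the gene of the protease adipsin of the alternative complement pathway, measured 4264, 6836 and 7062 CPM on ND and 554, 794, 827, 495 and 2117 CPM on HFD (log2 fold change -2.66 ± 0.45, adjusted p = 0.00144), and its mean FPKM moved from rank 5 to rank 28 of the protein-coding genes. HFD 5 lay between the other HFD libraries and ND.

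Genes that bring fatty acids into the adipocyte were higher, while several that make them were lower. In the fatty acid uptake list 11 of 17 were called higher and 0 lower (median 0.69), 6 and 1 with the header series as a term. *Lpl*, the gene of lipoprotein lipase, measured 8087, 8752 and 9830.2 CPM on ND and 15406, 21232, 16714, 16732 and 16516 CPM on HFD (log2 fold change 0.96 ± 0.16, adjusted p = 0.00118). *Cd36*, a fatty acid translocase, was also higher (0.82 ± 0.14), as were the fatty acid binding proteins *Fabp5* (1.77 ± 0.27) and *Fabp4* (0.73 ± 0.16) and the lipase inhibitor *Angptl8* (1.33 ± 0.45). Per length, *Fabp4* averaged 3925 on ND and 5921 on HFD FPKM and moved from rank 10 to rank 5, behind 4 mitochondrially encoded genes.

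De novo lipogenesis, the making of fatty acids from acetyl units, had 4 members called higher and 10 lower of 20 (median -0.51), and 2 and 6 with the header series as a term. *Acly*, the gene of ATP citrate lyase, measured 385, 868 and 1199 CPM on ND and 215, 219, 299, 306 and 175 CPM on HFD (log2 fold change -1.75 ± 0.32, adjusted p = 0.00213). *Elovl6*, an elongase of saturated fatty acids, measured 42.2, 125 and 245 CPM on ND and 19.5, 20.7, 26.1, 22.4 and 14.0 CPM on HFD (log2 fold change -2.74 ± 0.44, adjusted p = 0.00115). *Fasn*, the gene of fatty acid synthase, measured 2040.5, 4649.6 and 6976 CPM on ND and 1300.3, 2066, 2497, 2229.8 and 1083 CPM on HFD (log2 fold change -1.31 ± 0.38, adjusted p = 0.0199), and here HFD 2, 3 and 4 overlapped with ND 1. *Acaca*, the gene of acetyl-CoA carboxylase 1, was lower (-1.77 ± 0.32), as was *Thrsp* (-1.60 ± 0.30). The ND libraries differed among themselves in this pathway: ND 1 was the lowest of the 3 for 16 of the 20 genes and ND 3 the highest for 17. The members called higher were *G6pdx* (1.30 ± 0.13) and *Pgd* (0.60 ± 0.21), which supply NADPH, *Scd2* (1.18 ± 0.20) and *Elovl5* (0.31 ± 0.09). *Scd1*, the major stearoyl-CoA desaturase of fat and rank 6 of the protein-coding genes per length on HFD, did not pass (20891, 20706 and 25719 CPM on ND and 23409, 29584, 27338, 26359.5 and 33032 CPM on HFD, log2 fold change 0.32 ± 0.17, adjusted p = 0.14). *Srebf1*, the gene of the transcription factor SREBP-1 that drives this pathway, did not pass either (log2 fold change -0.03 ± 0.17, adjusted p = 0.889).

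**Figure D3:**
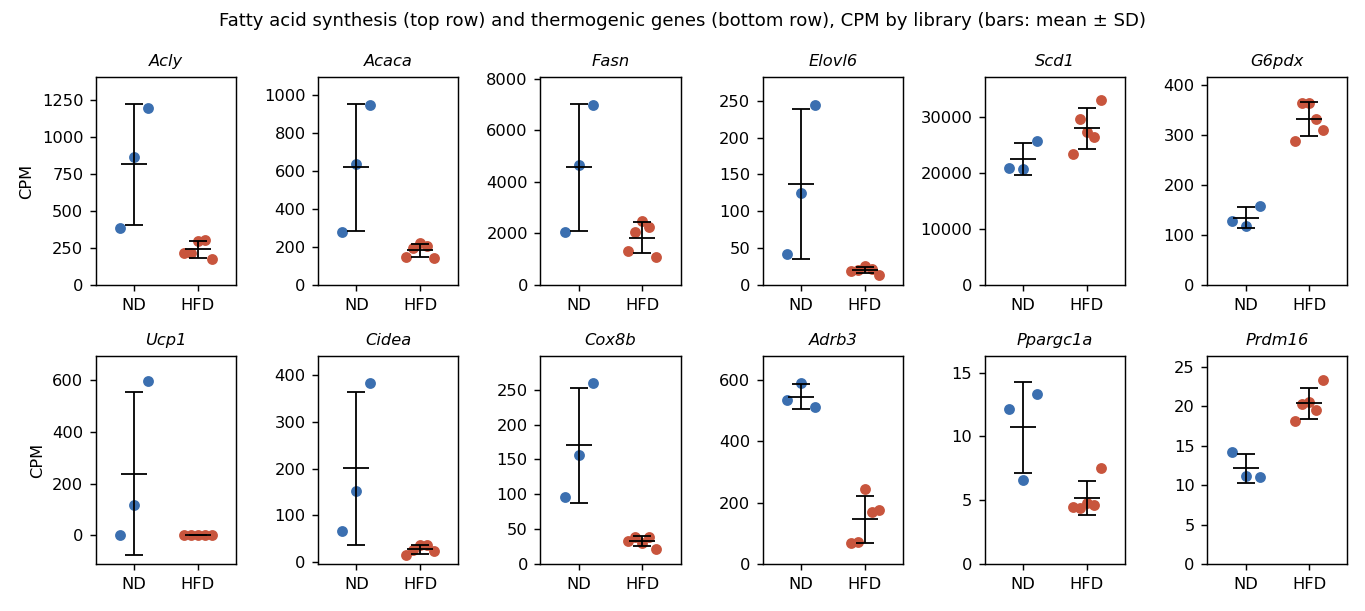
Expression in CPM (vertical axes, each including 0) of 6 genes of fatty acid synthesis (top row) and 6 thermogenic genes (bottom row) in the 3 ND (blue) and 5 HFD (red) libraries of inguinal fat, with mean and SD. *Acly*, *Acaca* and *Elovl6* fall wholly below ND on HFD, *Scd1* overlaps, *G6pdx* is wholly above, and the ND libraries of *Ucp1* are spread from 2.45 to 598 CPM.

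Cholesterol synthesis and uptake genes were called higher in 14 of 24 cases and lower in 3 (median 0.51), and 4 were higher and 1 lower with the header series as a term. The largest increases were in *Sc5d*, a late enzyme of sterol synthesis (1.73 ± 0.14), *Insig1*, the sterol-sensing retention protein (1.47 ± 0.23), *Hsd17b7* (1.29 ± 0.19) and *Hmgcs1*, the gene of HMG-CoA synthase (1.27 ± 0.23). *Idi1*, an isomerase of the same pathway, measured 12.995, 12.4 and 104 CPM on ND and 5.98, 7.92, 13.2, 13.5 and 8.97 CPM on HFD (log2 fold change -2.12 ± 0.65, adjusted p = 0.0246). ND 3 stood far above the other ND libraries, which were close to HFD. Without ND 3 the fitted log2 fold change of *Idi1* was -0.36 and no longer called.

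In triglyceride assembly 4 of 15 genes were called higher and 4 lower, shares close to those of all genes, and 2 and 2 with the header series as a term and 2 lower without ND 3. *Dgat2*, which adds the last fatty acid, measured 642, 815 and 873 CPM on ND and 1873, 2485, 3235, 3173 and 2651 CPM on HFD (log2 fold change 1.79 ± 0.21, adjusted p = 0.000258). *Agpat2* (1.37 ± 0.31), of phosphatidic acid synthesis, and *Mogat2* (3.01 ± 0.42) were higher too. *Pck1*, whose enzyme makes glycerol backbone from pyruvate in fat, measured 3751, 3154 and 5062 CPM on ND and 759, 775, 909.9, 521 and 1561 CPM on HFD (log2 fold change -2.14 ± 0.31, adjusted p = 0.000739), with HFD 5 the highest of the HFD libraries and still below every ND library. Around the lipid droplet, 8 of 23 genes were called higher, among them the droplet proteins *Plin2* (1.47 ± 0.30) and *Cidec* (0.80 ± 0.15), and 4 lower, 6 and 3 with the header series as a term. The lipases and the main coat protein of the droplet did not pass: *Pnpla2* (log2 fold change 0.06 ± 0.14, adjusted p = 0.732), *Lipe* (log2 fold change 0.06 ± 0.14, adjusted p = 0.744) and *Plin1* (log2 fold change 0.08 ± 0.13, adjusted p = 0.651).

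Of the thermogenic and beige adipocyte list, 12 of 24 genes were called lower and 3 higher (median -0.93), and 4 lower and 2 higher with the header series as a term. Without HFD 5 the number called higher was 5, and without ND 2, HFD 2, HFD 3 or HFD 4 it was 2. The number called lower ran from 9 to 13 as single libraries were left out, and 7 members lay wholly below ND. *Ckmt2*, called lower, was high in ND 1 alone, at 43.3, 0 and 1.24 CPM on ND. *Dio2*, also called lower, overlapped between diets, at 1.15, 8.09 and 34.1 CPM on ND and 1.33 to 5.98 on HFD. *Adrb3* (chr8:27225776-27250616), the β3-adrenergic receptor of adipocytes, measured 536, 590.5 and 511 CPM on ND and 66.8, 71.6, 245, 168 and 175 CPM on HFD (log2 fold change -1.91 ± 0.39, adjusted p = 0.00368; with the header series as a term -1.64, adjusted p = 0.148). *Ucp1* (chr8:83290352-83298452), the uncoupling protein of brown and beige fat, measured 2.45, 115 and 598 CPM on ND and 0.409, 1.85, 0.393, 2.09 and 0.601 CPM on HFD (log2 fold change -7.81 ± 1.36, adjusted p = 0.00168). *Cidea*, a droplet protein of thermogenic fat, measured 66.8, 152 and 382 CPM on ND and 14.3, 25.6, 35.7, 37.2 and 22.6 CPM on HFD (log2 fold change -2.89 ± 0.50, adjusted p = 0.00156). All 3 were apart between diets, but the *Ucp1* levels on ND were spread from 2.45 CPM in ND 1, close to HFD, to 598 in ND 3. *Ppargc1a*, the coactivator of mitochondrial biogenesis, measured 12.2, 6.60 and 13.3 CPM on ND and 4.48, 4.35, 4.80, 4.59 and 7.52 CPM on HFD (log2 fold change -1.05 ± 0.27, adjusted p = 0.0119), with HFD 5 overlapping ND 2. *Cox8b*, a subunit of cytochrome oxidase found in heart and brown fat, was lower (-2.39 ± 0.30). *Prdm16*, a regulator of beige fate, was higher instead (0.75 ± 0.14), as was the creatine synthesis gene *Gamt* (1.82 ± 0.13).

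In the TCA cycle 11 of 25 genes were called lower and 1 higher (median -0.39), and with the header series as a term 2 were higher and 1 lower. As single libraries were left out, 8 to 16 were called lower, and ND 3 was the highest ND library in all 25 genes. Among the members called lower were *Pdhb* (-0.78 ± 0.24), of pyruvate dehydrogenase, and *Sdha* (-0.77 ± 0.17), of succinate dehydrogenase, and cytosolic *Idh1* was the member called higher (0.83 ± 0.10). In branched-chain amino acid catabolism 10 of 24 were called lower and none higher (median -0.24), led by *Ppm1k*, the phosphatase that activates the rate-limiting dehydrogenase (-1.37 ± 0.19), *Ivd* (-0.996 ± 0.13), the aminotransferase *Bcat2* (-0.87 ± 0.15) and *Aldh6a1* (-0.66 ± 0.11), and 4 were lower with the header series as a term. The branched-chain genes called lower numbered 8 to 14 as single libraries were left out, and ND 3 was the highest ND library in 22 of 24. Nuclear subunits of the respiratory chain had 7 called higher and 4 lower of 70 (median 0.03), with *Ndufs1* (-0.71 ± 0.15) and *Uqcrc2* (-0.68 ± 0.17) the largest decreases and *Ndufb4* (0.69 ± 0.14) the largest increase. With the header series as a term 1 was called higher and 0 lower. Single ND libraries moved these counts: 24 were higher without ND 3, 4 without ND 2, and 19 lower without ND 1. Fatty acid oxidation had 4 called higher and 6 lower of 25, 2 and 1 with the header series as a term, with *Cpt1a*, of fatty acid entry into mitochondria, the largest increase (49.7, 41.9 and 35.4 CPM on ND and 113, 127, 137, 139.9 and 119 CPM on HFD, log2 fold change 1.59 ± 0.13, adjusted p = 9.44e-05). *Acadvl* (-0.92 ± 0.24) and *Acad10* (-0.91 ± 0.13), acyl-CoA dehydrogenases, were lower. Both the respiratory chain and the oxidation list lay under the background in each direction, although without ND 3 the oxidation list had 9 higher.

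*Slc2a4*, the insulin-responsive glucose transporter GLUT4, measured 144, 140.3 and 211 CPM on ND and 115, 119, 110.3, 125 and 139 CPM on HFD (log2 fold change -0.44 ± 0.15, adjusted p = 0.0336), and the highest HFD library nearly met the lowest ND library. Of 21 genes of glucose use 1 was called higher, which is under the 28.0% of all genes, and 7 lower, near the 29.6% of all genes. With the header series as a term the counts were 1 and 2. The pyruvate dehydrogenase kinases *Pdk4* (-1.46 ± 0.37) and *Pdk1* (-1.29 ± 0.11) were among those called lower. In the insulin signalling list 8 of 22 genes were called higher and 8 lower, 6 and 3 with the header series as a term. *Irs1*, an insulin receptor substrate, was lower (-0.61 ± 0.17), as was the receptor gene *Insr* (-0.39 ± 0.12). *Grb14*, an inhibitor of the receptor (1.86 ± 0.21), *Igf1* (1.42 ± 0.19), *Irs3* (1.30 ± 0.15) and *Trarg1*, of GLUT4 trafficking (1.29 ± 0.19), were higher. Of the adipocyte transcription factors, *Pparg*, the master regulator of fat cell identity, did not pass (112, 128 and 199 CPM on ND and 179, 168, 179.9, 157 and 186 CPM on HFD, log2 fold change 0.25 ± 0.17, adjusted p = 0.258). *Zbtb16* (-1.91 ± 0.33) and *Klf15* (-1.28 ± 0.24) were the largest decreases of the 7 called lower, and *Zfp423*, a preadipocyte regulator (0.91 ± 0.14), the largest increase of the 5 called higher, of 22. With the header series as a term 2 were lower and 3 higher.

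Extracellular matrix genes were higher almost as a block. Of 20 collagen genes 18 were called higher and 2 lower (median 1.50), 16 and 2 with the header series as a term. *Col1a1*, a chain of fibrillar collagen I, measured 258, 176 and 153 CPM on ND and 683, 567, 646, 942 and 494 CPM on HFD (log2 fold change 1.77 ± 0.25, adjusted p = 0.000611). *Col6a3*, a chain of the microfibrillar collagen VI that surrounds adipocytes, measured 184, 103 and 80.5 CPM on ND and 322, 347, 406, 468 and 273 CPM on HFD (log2 fold change 1.57 ± 0.28, adjusted p = 0.00203). HFD 4 was the highest library for both, and no HFD library overlapped with ND. *Col16a1* (2.54 ± 0.29), *Col14a1* (2.45 ± 0.30) and *Col12a1* (2.24 ± 0.35) were the largest increases, and *Col6a5* (-2.03 ± 0.47) and *Col27a1* (-1.26 ± 0.16) the members called lower.

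Matrix enzymes and matricellular proteins were called higher in 27 of 33 cases and lower in 1 (median 1.19), with 12 higher once the header series was a term. *Fn1*, the gene of fibronectin, measured 82.0, 63.8 and 42.7 CPM on ND and 314, 289, 279.6, 644 and 269 CPM on HFD (log2 fold change 2.52 ± 0.36, adjusted p = 0.000679). *Sparc*, which binds collagen, measured 2401, 1707 and 1726 CPM on ND and 6992, 8525, 6919, 7170.2 and 6329.6 CPM on HFD (log2 fold change 1.89 ± 0.17, adjusted p = 0.000112). The collagen cross-linker *Lox* (1.80 ± 0.26), the metalloproteinase inhibitor *Timp1* (2.94 ± 0.61) and the proteoglycan *Lum* (2.36 ± 0.34) were higher too, and *Mmp9* was the member called lower (-1.08 ± 0.44).

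Markers of the progenitor cells that give rise to adipocytes moved with the matrix: 14 of 19 were called higher and 2 lower (median 1.03), of which 8 and 1 with the header series as a term. *Cd248* (2.74 ± 0.38), *Mfap5* (2.403 ± 0.31) and *Pi16*, which marks interstitial progenitors (2.25 ± 0.36), led, together with *Wnt2* (2.81 ± 0.72). *Pdgfra*, the receptor used to define these cells, was higher by less (log2 fold change 0.58 ± 0.23, adjusted p = 0.0611), and *Icam1* was lower (-1.30 ± 0.18). Endothelial genes were called higher in 16 of 24 cases and lower in 3 (median 0.64), 5 higher with the header series as a term and 10 higher without ND 2. *Vwf*, the gene of von Willebrand factor, measured 22.4, 14.1 and 12.5 CPM on ND and 49.2, 45.1, 38.6, 37.6 and 33.2 CPM on HFD (log2 fold change 1.32 ± 0.21, adjusted p = 0.00113). *Cdh5*, the gene of VE-cadherin, was higher (0.93 ± 0.21), as were *Vegfc* (1.40 ± 0.37) and *Angpt2* (1.20 ± 0.29), vessel growth factors, while *Vegfa*, the main angiogenic growth factor (-0.71 ± 0.13), and *Prox1*, which marks lymphatic endothelium (-1.25 ± 0.41), were lower.

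Secreted growth factors and their antagonists were among the larger changes. The Wnt list had 11 called higher and 1 lower of 22, and the bone morphogenetic protein and TGF-β list 12 and 2 of 24, the latter with 7 higher when either ND 2 or ND 3 was left out. With the header series as a term 5 and 6 were higher. *Nog*, the gene of the BMP antagonist noggin, measured 0.480, 0.0198 and 0.0233 CPM on ND and 3.73, 5.34, 8.28, 3.55 and 1.86 CPM on HFD (log2 fold change 4.72 ± 0.99, adjusted p = 0.00426). *Grem1*, the gene of gremlin 1, another BMP antagonist, measured 6.33, 12.8 and 5.71 CPM on ND and 0, 0, 0, 0.0248 and 0.683 CPM on HFD (log2 fold change -5.74 ± 1.19, adjusted p = 0.00396). The pair moved in opposite directions with no overlap between diets. *Grem1* was highest in ND 2 on chow and in HFD 5 on HFD, an order that most T cell genes below share. The cell source of its change was not tested. *Fgf9* (0.264, 0.218 and 0.0932 CPM on ND and 6.75, 10.4, 3.96, 5.34 and 2.03 CPM on HFD, log2 fold change 4.87 ± 0.65, adjusted p = 0.000493) and *Fgf1* (2.48 ± 0.28), growth factors, *Sfrp4*, a Wnt antagonist (3.36 ± 0.46), and *Fstl1*, a follistatin-like protein (2.27 ± 0.27), were higher. The receptor *Fgfr2* was lower (-1.15 ± 0.15). *Lef1*, a Wnt-pathway transcription factor that lymphocytes also express, was the Wnt list's member called lower (24.8, 38.5 and 31.7 CPM on ND and 0.384, 0.182, 0.498, 0.149 and 10.5 on HFD).

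Many macrophage genes were higher, among them those of lipid-laden macrophages. *Trem2*, the lipid-sensing receptor that marks the macrophages around dying adipocytes, measured 1.08, 0.654 and 0.536 CPM on ND and 48.03, 18.3, 11.2, 21.8 and 6.81 CPM on HFD (log2 fold change 4.81 ± 0.71, adjusted p = 0.000766). *Gpnmb*, a lysosomal glycoprotein of the same cells, measured 17.1, 7.16 and 4.83 CPM on ND and 186, 76.0, 52.8, 86.1 and 20.1 CPM on HFD (log2 fold change 3.12 ± 0.73, adjusted p = 0.00696). *Lgals3*, the gene of galectin 3, measured 42.6, 40.6 and 57.8 CPM on ND and 558, 398, 257, 423 and 192 CPM on HFD (log2 fold change 2.96 ± 0.36, adjusted p = 0.00032). HFD 1 was the highest and HFD 5 the lowest HFD library for all 3, and none overlapped with ND. In the lipid-associated macrophage list 14 of 19 were called higher and 0 lower (median 1.42), 9 with the header series as a term. *Atp6v0d2*, a proton pump subunit (4.25 ± 0.85), and *Mmp12*, macrophage elastase (3.53 ± 0.70), were among the largest, while *Itgax*, the gene of CD11c, did not pass (log2 fold change 0.96 ± 0.46, adjusted p = 0.112).

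Of 20 general macrophage genes 12 were called higher and 3 lower (median 1.03). *Adgre1*, the gene of F4/80, measured 11.9, 8.17 and 7.60 CPM on ND and 54.7, 27.9, 34.8, 66.9 and 20.4 CPM on HFD (log2 fold change 2.15 ± 0.40, adjusted p = 0.00225). *Cd68*, a lysosomal macrophage protein, was higher by a like amount (2.05 ± 0.38). In the fit with the header series as a term 1 macrophage gene was called higher and 2 lower, and *Adgre1* read 1.15, adjusted p = 0.106. The members called lower were *Cd53* (-1.69 ± 0.25), *Laptm5* (-1.28 ± 0.23) and *Aif1* (-0.80 ± 0.21), and 5 did not pass. Other leukocytes express some of the list's genes as well, and the cell source of these changes was not tested. Summed over the 20 genes the level overlapped between diets, 1093 to 1645 on ND and 923 to 1958 on HFD CPM. Resident macrophage genes were called higher in 14 of 17 cases and lower in 1 (median 1.79), 5 and 1 with the header series as a term. *Retnla*, a product of alternatively activated macrophages, measured 41.6, 47.6 and 37.6 CPM on ND and 222, 207, 459, 500.3 and 341 CPM on HFD (log2 fold change 3.03 ± 0.34, adjusted p = 0.000235). *Pf4* (2.47 ± 0.35), *Cd209f* (2.28 ± 0.47) and *Folr2* (2.23 ± 0.42) were higher too. *Timd4*, a phosphatidylserine receptor of long-lived resident macrophages, went the other way, at 29.8, 56.9 and 38.3 CPM on ND and 3.45, 0.807, 7.39, 6.88 and 3.56 on HFD (log2 fold change -3.24 ± 0.54, adjusted p = 0.0014).

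Of 22 chemokine ligands 9 were called higher and 7 lower, 6 and 2 with the header series as a term. *Ccl2*, the main monocyte attractant, measured 2.97, 0.615 and 1.49 CPM on ND and 8.95, 9.06, 7.65, 33.9 and 8.82 CPM on HFD (log2 fold change 3.02 ± 0.71, adjusted p = 0.00717). *Ccl24*, an eosinophil attractant, measured 1.37, 0.833 and 1.86 CPM on ND and 10.1, 8.73, 15.5, 21.4 and 8.06 CPM on HFD (log2 fold change 3.24 ± 0.44, adjusted p = 0.000528). *Ccl7* was higher too (3.06 ± 0.62), and HFD 4 held the most of all 3. The chemokines that were lower included *Ccl22* (-3.13 ± 0.63), *Ccl5* (-2.71 ± 0.53), *Ccl19* (-3.93 ± 1.08) and *Cxcl13* (-3.86 ± 0.46). Cytokines had 3 called higher and 5 lower of 16, with 3 lower without ND 2, and 0 and 3 with the header series as a term. *Tnf* measured 2.37, 7.71 and 4.15 CPM on ND and 0.639, 1.25, 1.26, 1.64 and 0.973 CPM on HFD (log2 fold change -2.04 ± 0.42, adjusted p = 0.00374). *Il1rn*, the interleukin 1 receptor antagonist, measured 1.32, 0.456 and 1.28 CPM on ND and 21.2, 9.69, 5.01, 11.1 and 2.30 CPM on HFD (log2 fold change 3.28 ± 0.74, adjusted p = 0.00606). The diets did not overlap in either. Lysosomal genes were called higher in 22 of 34 cases and lower in 2 (median 0.49), 10 higher with the header series as a term, with the proteases *Ctsl* (1.79 ± 0.20) and *Ctsd* (1.42 ± 0.24) among the largest.

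Genes of lymphocytes and of lymph node stroma were lower on HFD, and lowest in HFD 1 to 4. All 19 of 19 T cell genes and 13 of 14 B cell genes were called lower, with medians of -3.61 and -5.13, as were 7 of 8 stromal genes (median -4.001). *Ms4a1* (chr19:11249675-11266241), the gene of the B cell surface protein CD20, measured 112, 158 and 101 CPM on ND and 0.307, 0.781, 0.708, 0.819 and 7.06 CPM on HFD (log2 fold change -5.96 ± 0.87, adjusted p = 0.000727). *Cd3e* (chr9:44998740-45009627), a chain of the T cell receptor complex, measured 37.3, 50.3 and 38.9 CPM on ND and 0.972, 0.886, 1.36, 1.69 and 8.47 CPM on HFD (log2 fold change -3.96 ± 0.71, adjusted p = 0.00187). *Glycam1*, a ligand on the vessels through which lymphocytes enter lymph nodes, measured 14.4, 25.6 and 25.7 CPM on ND and 0, 0, 0, 0 and 0.849 CPM on HFD (log2 fold change -6.86 ± 1.17, adjusted p = 0.00151). The 3 ND libraries were high in all of these, HFD 1 to 4 were at or near 0, and HFD 5 lay between, with the highest level of the HFD libraries in 12 of the 14 B cell, 18 of the 19 T cell and 6 of the 8 stromal genes. With the header series as a term 13 B cell, 14 T cell and 5 stromal genes were called lower. Summed without *Ighm*, the B cell list made 1466 to 2169 CPM on ND, 27.6 to 48.5 in HFD 1 to 4 and 168 in HFD 5, and the T cell list 697 to 1212 on ND, 25.9 to 41.6 in HFD 1 to 4 and 204 in HFD 5. The part of lymph node tissue in these differences was not tested.

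The exception among B cell genes was *Ighm*, the gene of the IgM heavy chain, which was higher on HFD at 433, 549 and 410.4 CPM on ND and 665, 934, 733, 795 and 851 on HFD (log2 fold change 0.78 ± 0.15, adjusted p = 0.00242). *Ccl21a*, a chemokine of T cell zones with near-identical gene copies among which reads may be split, measured 112, 219 and 88.1 CPM on ND and 1.15, 0, 0, 1.89 and 8.41 CPM on HFD (log2 fold change -5.89 ± 1.18, adjusted p = 0.0034). *Marco*, a scavenger receptor, measured 46.3, 65.9 and 111 CPM on ND and 4.63, 6.23, 5.08, 6.13 and 4.62 CPM on HFD (log2 fold change -3.80 ± 0.26, adjusted p = 7.39e-05), and unlike the lymphocyte genes it was even across the 5 HFD libraries. The 5 lower genes with the smallest adjusted p were *Akna* (-3.09 ± 0.19), *Il2rg*, the shared chain of cytokine receptors (-2.60 ± 0.15), *Swap70*, a B cell guanine exchange factor (-1.78 ± 0.11), *Tap1*, the peptide transporter of MHC class I (-1.50 ± 0.09), and *Trpm2* (-3.54 ± 0.23). Among the largest decreases by fold were also *Il22ra2*, a decoy receptor of interleukin 22 (22.1, 20.5 and 28.2 CPM on ND and 0.435, 0.130, 0.157, 0.0745 and 0.331 on HFD), *Chst3* (48.4, 68.0 and 42.6 and 0.972, 0.860, 0.367, 0.273 and 1.80) and *Cxcr2*, a neutrophil chemokine receptor (5.11, 9.26 and 5.76 and 0.230, 0, 0, 0.124 and 0.0828). HFD 5 was not the highest HFD library in *Il22ra2* and *Cxcr2*. The other genes among the 10 largest decreases included *Ms4a1*, given above, *Fcer2a* (-6.52 ± 0.94), also of B cells, *Ccr6*, a chemokine receptor of lymphocytes (-6.37 ± 0.87), the desmosomal *Dsc3* (-6.05 ± 1.003) and *Myl3*, a myosin light chain at 15.03, 0.278 and 0.653 CPM on ND and 0 in every HFD library. With at least 5 CPM on both diets, a group chosen after its values were seen, the largest decreases were again mostly lymphocyte genes, among them *Ltb*, of lymphotoxin β (-4.14 ± 0.997), *Gimap3* (-4.14 ± 0.48), *Tcf7* (-4.13 ± 0.90) and *Pax5* (-3.98 ± 1.30).

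**Figure D4:**
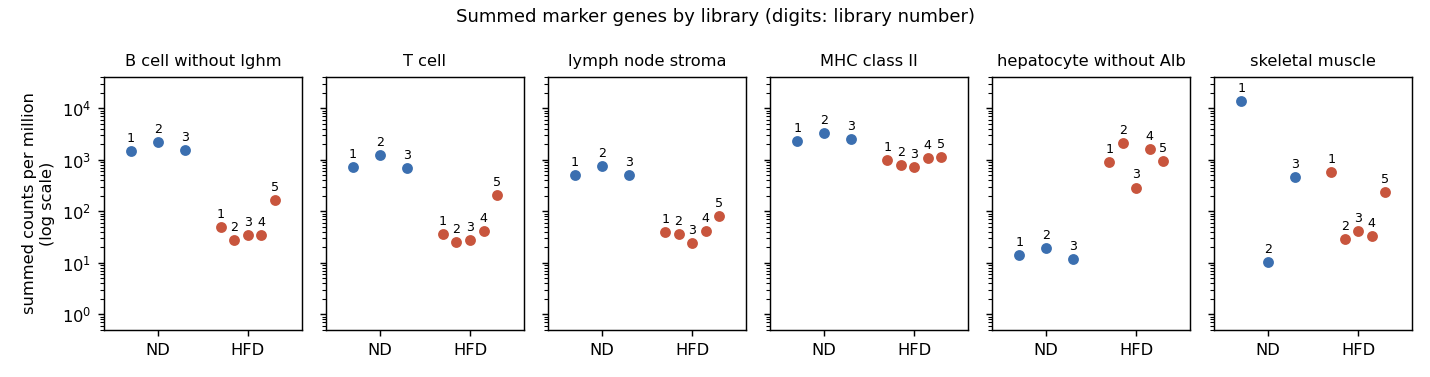
Summed CPM (log axis) of marker lists in each library of inguinal fat, ND in blue and HFD in red, with the library number above each point. B cell (without *Ighm*), T cell and lymph node sums are lower on HFD, with HFD 5 the highest of the HFD libraries. Hepatocyte genes without *Alb* sum to 11.7 to 19.6 on ND and 289 to 2087 on HFD, and muscle genes from 10.6 to 13591 within ND alone.

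Genes of MHC class II, which presents antigen on B cells, dendritic cells and macrophages, were called lower in 9 of 10 cases, and also in 9 with the header series as a term. *Cd74*, the invariant chain, measured 754, 1055 and 912 CPM on ND and 340.3, 268, 264, 395 and 389 CPM on HFD (log2 fold change -1.45 ± 0.17, adjusted p = 0.000291). *H2-Aa* measured 419, 597 and 493 CPM on ND and 243, 212, 173, 281 and 271 CPM on HFD (log2 fold change -1.09 ± 0.17, adjusted p = 0.00107). *Ciita*, the coactivator that switches the class on, measured 52.2, 80.9 and 50.003 CPM on ND and 5.04, 5.83, 5.37, 6.73 and 13.1 CPM on HFD (log2 fold change -3.08 ± 0.32, adjusted p = 0.000182). Members fell by different amounts. *H2-Ob* (-5.17 ± 0.72), *H2-DMb2* (-5.06 ± 0.53) and *H2-Oa* (-4.49 ± 0.70), of which the O chains are known from B cells, fell most. *H2-Aa*, *H2-Eb1* (-1.12 ± 0.16) and *H2-Ab1* (-1.26 ± 0.18), which dendritic cells and macrophages also express, fell least of those called. HFD 5 was the highest HFD library for *Ciita*, *H2-Oa*, *H2-Ob* and *H2-DMb2*, as it was for 12 of the 14 B cell genes, while for *H2-Aa* HFD 4 was. The cells from which these differences come were not tested. *H2-DMb1* did not pass (33.8, 55.9 and 39.3 CPM on ND and 50.9, 52.8, 38.9, 47.8 and 35.8 CPM on HFD, log2 fold change 0.07 ± 0.19, adjusted p = 0.761).

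Promoters of this class are known to share a Y box, an inverted CCAAT element bound by NF-Y, with which CIITA acts. The 100 bases before the start are printed for the 3 genes that hold the letters CTGATTGG, of which *H2-Oa* fell much and *H2-Aa* and *H2-Eb1* less, and for *H2-DMb1*, which did not pass. They are read 5′ to 3′ on the strand of the gene from RefSeq (GRCm38.p6), with CTGATTGG in capitals, or in *H2-DMb1* its core ATTGG.
H2-Aa: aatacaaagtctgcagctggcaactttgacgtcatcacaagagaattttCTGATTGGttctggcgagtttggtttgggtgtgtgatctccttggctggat
H2-Eb1: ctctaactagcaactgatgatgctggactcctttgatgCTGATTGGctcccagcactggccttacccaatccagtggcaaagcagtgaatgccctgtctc
H2-Oa: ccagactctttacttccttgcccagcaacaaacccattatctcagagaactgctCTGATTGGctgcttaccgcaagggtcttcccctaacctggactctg
H2-DMb1: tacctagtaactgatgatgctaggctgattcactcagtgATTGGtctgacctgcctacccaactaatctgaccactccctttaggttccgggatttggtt
In the same order the windows lie at chr17:34287824-34287923 (minus strand), chr17:34305767-34305866 (plus strand), chr17:34092279-34092378 (plus strand) and chr17:34153091-34153190 (plus strand), and the capitals begin at -51, -62, -46 and -61 from the start. Searched on both strands of 300-base windows (250 before and 50 after the start), CTGATTGG was in 3 of the 7 list genes that the RefSeq table holds and in 4.10% of all 32851 promoters, and its core ATTGG, which every CTGATTGG contains, was in 7 of 7 and in 37.4% of all. Within the 100 printed bases the core was in 6 of the 7 and in 18.9% of all.

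Transcripts that hepatocytes make in quantity were absent or nearly so on ND and present in all 5 HFD libraries. By fold, the 10 largest increases among protein-coding genes with at least 5 CPM on HFD and no overlap were all genes known from liver, among them *Ahsg*, *Mup20*, *Gc*, *Apob*, *Pzp*, *Mug1*, *Mat1a*, *Ces3a* and *Cps1*. *Ahsg* (chr16:22891277-22899449), the gene of the plasma protein fetuin A, had no count on ND and 36.2, 95.05, 9.41, 64.9 and 35.3 CPM on HFD, at least 718-fold higher against a floor of 3 counts in each ND library (adjusted p = 0.000601). *Mup20*, a major urinary protein of a family with near-identical copies among which reads may be split, had none on ND and 35.9, 80.5, 13.2, 64.4 and 38.5 CPM on HFD, at least 693-fold higher (adjusted p = 0.000299). *Alb* (chr5:90460897-90476602), the gene of serum albumin, was not at 0 on ND and measured 14.7, 22.1 and 36.6 CPM on ND and 235, 548, 66.2, 546 and 285 CPM on HFD (log2 fold change 3.78 ± 0.70, adjusted p = 0.00224). The order of the libraries was shared: HFD 3 was the lowest HFD library for 34 of 34 hepatocyte genes and HFD 2 the highest for 29.

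These 34 genes were listed after their values had been seen, and all of them were called higher, which is given as a description. The clotting genes *Fga* (13.2, 30.5, 3.07, 30.1 and 15.9 CPM on HFD) and *Fgb* (21.7, 45.97, 4.30, 49.8 and 21.02) had at most 1 and 16 counts in any ND library. *Serpina1c*, an α1-antitrypsin gene with close paralogs between which reads may be split, read 31.6, 88.9, 15.6, 71.8 and 44.1 CPM on HFD. Summed without *Alb*, the list made 11.7 to 19.6 CPM on ND and 289 to 2087 on HFD. In epididymal fat 33 of the 34 were called higher on HFD as well, where 27.8% of all genes tested were called higher and 30.1% lower. Their source was not tested.

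Promoters of 4 of these genes are shown because they hold GTTAAT, one arm of the palindrome bound by the liver factor HNF1, close before the start. The 100 bases before the start are printed as above, with GTTAAT or its reverse complement ATTAAC in capitals.
Alb: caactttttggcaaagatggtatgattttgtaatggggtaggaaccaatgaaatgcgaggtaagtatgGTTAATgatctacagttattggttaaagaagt
Gc: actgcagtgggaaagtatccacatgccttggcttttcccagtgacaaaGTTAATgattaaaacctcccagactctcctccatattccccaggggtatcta
Serpina1c: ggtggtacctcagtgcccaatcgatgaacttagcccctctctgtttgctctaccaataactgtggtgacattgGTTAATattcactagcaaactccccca
Fgb: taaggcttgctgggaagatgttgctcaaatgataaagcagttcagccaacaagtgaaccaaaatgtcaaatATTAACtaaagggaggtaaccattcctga
In the same order they lie at chr5:90460770-90460869 (plus strand), chr5:89457899-89457998 (minus strand), chr12:103904951-103905050 (minus strand) and chr3:83049864-83049963 (minus strand), with capitals from -32, -52, -27 and -29. GTTAAT on either strand was within these 100 bases in 9 of the 25 list genes searched in the same way and in 2.51% of all promoters. Beside *Alb*, *Gc*, *Fga* and *Fgb*, the 9 were the close paralogs *Serpina1a*, *Serpina1b*, *Serpina1c*, *Serpina1d* and *Serpina1e*. They therefore do not count as 9 independent genes.

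Genes of skeletal muscle, which borders the pad, separated single libraries rather than diets. *Acta1*, the actin of skeletal muscle, measured 1588, 1.63 and 56.9 CPM on ND and 99.5, 17.2, 26.8, 17.1 and 63.9 CPM on HFD (log2 fold change -3.61 ± 1.43, adjusted p = 0.0622). *Myh4*, a fast myosin, measured 3100.3, 0 and 101 CPM on ND and 63.1, 0.104, 1.18, 0 and 36.0 CPM on HFD. ND 1 was the highest ND library in all 14 genes of the list and ND 2 the lowest. Although 13 of 14 were called lower, the diets overlapped in every one, 0 were called with the header series as a term and 0 without ND 1, and 4 to 7 without any one of HFD 2 to 5. *Pvalb* (-3.47 ± 1.40), *Eef1a2* (-5.12 ± 1.66) and *Xirp2* (-4.38 ± 1.59), which muscle also expresses, were likewise high in ND 1 alone, *Pvalb* at 486, 0.0595 and 25.4 CPM on ND and 29.7, 9.27, 8.94, 10.6 and 18.2 on HFD. *Krt14*, of basal epithelium, was seen in ND 3 at 42.7 CPM and in every other library at 0.844 CPM or less, and 5 of 8 genes of skin and mammary epithelium were called lower, 3 without ND 3 and 1 with the header series as a term.

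Few cell cycle genes were called in iWAT, with 2 called higher and 4 lower of 26 (median -0.03), both under the background, and 1 and 3 with the header series as a term. *Mki67*, a marker of dividing cells, measured 13.7, 20.6 and 13.1 CPM on ND and 11.3, 23.2, 13.9, 30.0 and 12.3 CPM on HFD (log2 fold change 0.20 ± 0.34, adjusted p = 0.651). *Cdk1*, the mitotic kinase, was higher (1.82 ± 0.30). The replication helicase genes *Mcm2* (-0.77 ± 0.15), *Mcm3* (-0.71 ± 0.16) and *Mcm5* (-0.79 ± 0.26) were lower. Immediate early genes had 6 called higher and 5 lower of 19, shares near those of all genes, with 3 higher without ND 2 and 1 and 1 with the header series as a term. *Fos* measured 3.48, 1.77 and 3.38 CPM on ND and 28.2, 24.1, 6.74, 27.0 and 10.3 CPM on HFD (log2 fold change 2.75 ± 0.53, adjusted p = 0.00289). *Egr3*, also an immediate early transcription factor, measured 17.6, 20.7 and 21.6 CPM on ND and 1.51, 1.46, 1.15, 2.33 and 3.44 CPM on HFD (log2 fold change -3.33 ± 0.33, adjusted p = 0.000148). Endoplasmic reticulum stress genes had 9 called higher and 0 lower of 23, with *Ddit3*, the gene of CHOP, at the largest step (0.99 ± 0.13), and 4 or 5 higher without ND 2, ND 3 or HFD 3 and 4 with the header series as a term. Of the p53 and senescence list, *Cdkn2b* (1.98 ± 0.34) and *Phlda3* (2.21 ± 0.18) were among 8 called higher of 22, with 4 lower, and 4 and 5 with the header series as a term. Of the clock genes 1 of 20 was called higher and 3 lower, counts that moved between 0 and 5 and between 1 and 4 when single libraries were left out, and 0 and 4 with the header series as a term. Interferon-stimulated genes had 6 called higher, led by *Ifit3* (1.34 ± 0.18), and 9 lower, led by *Mx1* (-1.49 ± 0.39), of 23, with 2 or 3 higher when ND 2, ND 3 or HFD 4 was left out and 1 and 9 with the header series as a term. In the complement list 10 of 20 were called higher and 3 lower, 6 and 2 with the header series as a term. The receptor *C3ar1* (3.16 ± 0.53) and the inhibitor *Cfi* (3.16 ± 0.67) were higher, as were *C6* (2.63 ± 0.38) and the 3 chains of C1q. Among HFD libraries *Cfi* was highest in HFD 2 and lowest in HFD 3, as most hepatocyte genes above were, and its source was not tested. *C3*, the central component, was lower (582, 756 and 561 CPM on ND and 381, 232, 291, 391 and 237 CPM on HFD, log2 fold change -1.05 ± 0.20, adjusted p = 0.00275). *Slc7a11*, the cystine importer, measured 4.58, 5.24 and 6.04 CPM on ND and 0.153, 0.130, 0.498, 0.422 and 1.14 CPM on HFD (log2 fold change -3.47 ± 0.61, adjusted p = 0.00168), the largest fall of the antioxidant list. In that list 11 of 25 were called higher (6 without ND 2) and 5 lower (4 and 2 with the header series as a term). Those lower included *Gpx3*, the glutathione peroxidase of plasma (-1.45 ± 0.18).

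The diet change was then compared with that in epididymal fat (eWAT), the visceral pad of the testis, of wild type mice (4 ND and 5 HFD libraries). In eWAT too, all ND libraries and HFD 5 share a header series, and HFD 1 to 4 are in the other. For those 4 the series and the diet cannot be told apart, and the eWAT calls were made without the series as a term. The difference between the depots was tested as an interaction over 17 libraries and 15070 genes. The iWAT change was above the eWAT change in 2717 genes (18.0%) and below it in 2521 (16.7%) at an adjusted p under 0.1. Counts by list are to be read against these shares, and those called within eWAT against its own 27.8% higher and 30.1% lower of all genes.

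MHC class II differed in all 10 genes. *Cd74* was lower in iWAT and higher in eWAT, where it measured 267 ± 59.3 CPM on ND (SD, n = 4) and 838 ± 183 CPM on HFD (SD, n = 5), and the difference of the log2 fold changes was -3.11 ± 0.28 (SE, adjusted p = 5.89e-06). *H2-DMb1*, which did not pass in iWAT, differed as well (-2.76 ± 0.29, adjusted p = 1.41e-05). In eWAT 7 of the 10 were called higher. B and T cell genes differed in 13 of 14 and 19 of 19, all with the iWAT change below. Macrophage genes were below in 13 of 20 and above in 0: all 20 were called higher in eWAT (median 2.72). *Cd68* differed (-1.84 ± 0.59, adjusted p = 0.0316), whereas for *Adgre1* (-0.72 ± 0.68, adjusted p = 0.468) and *Trem2* (-0.07 ± 0.996, adjusted p = 0.972) the difference did not pass, and both genes were higher on HFD in both pads.

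Of the cell cycle genes, 24 of 26 had an iWAT change below that of eWAT, where all 26 were called higher. *Mki67* measured 8.09 ± 2.81 CPM on ND (SD, n = 4) and 39.4 ± 17.5 CPM on HFD (SD, n = 5) in eWAT (-2.09 ± 0.53 between depots, adjusted p = 0.00915). Endothelial genes went the other way, with 17 of 24 above in iWAT and 0 below: they were called higher in 16 of 24 cases in iWAT and lower in 17 in eWAT. Examples were *Vwf* (1.94 ± 0.32, adjusted p = 0.00051) and *Cdh5* (1.62 ± 0.32, adjusted p = 0.00197). Adipocyte markers were above in 9 of 14 and below in 0, *Adipoq* among them (1.08 ± 0.31, adjusted p = 0.0187), with 8 called lower in eWAT.

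**Figure D5:**
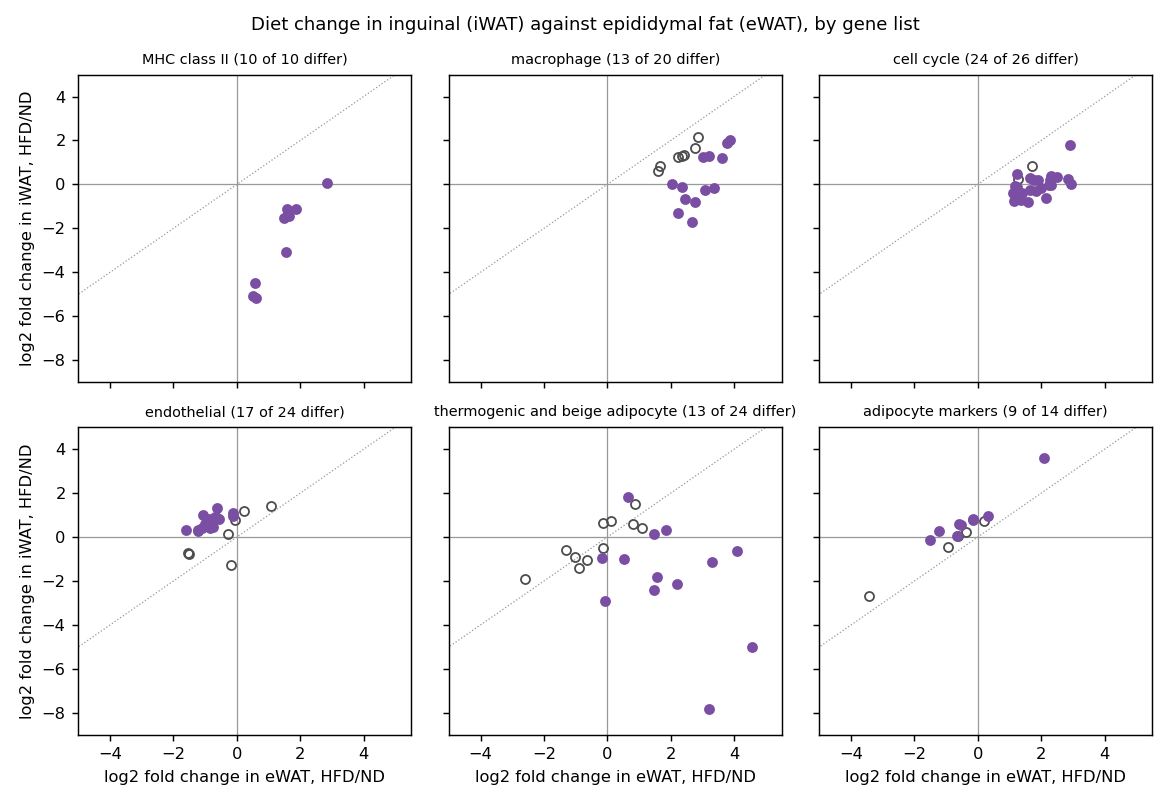
Log2 fold change on HFD in inguinal fat (vertical) against that in epididymal fat (horizontal) for the members of 6 gene lists. Filled points differ between the depots (interaction, adjusted p under 0.1), the dotted line marks equal change. MHC class II lies below the line throughout, the 24 filled cell cycle points of 26 lie below it, and the 17 filled endothelial points of 24 lie above it.

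Thermogenic genes were below in 12 of 24 and above in 1. *Ucp1* differed by -11.01 ± 2.05 (adjusted p = 0.00131), but in eWAT it was near 0 on both diets, at 0.0733 ± 0.0646 CPM on ND (SD, n = 4) and 0.684 ± 0.870 CPM on HFD (SD, n = 5). *Cox8b* (-3.86 ± 0.45, adjusted p = 3.43e-05) followed in the same direction. *Ckmt2*, also below, was high in ND 1 alone in iWAT. In eWAT it had 0 CPM on ND and 0.0642 ± 0.0972 CPM on HFD (SD, n = 5). Of the fat mass expansion genes *Mest* (2.57 ± 0.89, adjusted p = 0.0438), *Npr3* (2.12 ± 0.52, adjusted p = 0.0079) and *Lep* (1.50 ± 0.54, adjusted p = 0.0512) rose more in iWAT, and the difference did not pass for *Tph2* (0.55 ± 0.81, adjusted p = 0.65). *Slc16a12* was higher in iWAT and differed from eWAT (2.72 ± 0.30, adjusted p = 2.45e-05). For de novo lipogenesis 3 of 20 were above and 1 below, with *Acly* (-0.51 ± 0.45, adjusted p = 0.43) and *Fasn* (0.23 ± 0.62, adjusted p = 0.82) not passing the test. The 5 genes furthest above included *C4bp*, *Uox*, *Fga* and *Rgn*, known from hepatocytes and with at most 3 counts in any ND library of iWAT, and the 5 furthest below were *Ucp1*, *Xirp2*, *Eef1a2*, *Pvalb* and the B cell gene *Cd22*. Of these, *Xirp2*, *Eef1a2* and *Pvalb* rest on ND 1. *C4bp* was uneven on ND in eWAT, at 27.6 ± 51.3 CPM (SD, n = 4), and measured 1.95 ± 1.38 CPM on HFD there (SD, n = 5), so the size of its depot difference is uncertain.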

How the data were processed

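RNA from snap-frozen wild type inguinal fat was made into directional libraries. Per the labels and the study's methods, the authors trimmed reads with cutadapt, removed contaminating reads, aligned the rest to the mouse genome (GRCm38) with STAR and deposited a raw count for every gene and library, together with FPKM values. The counting program and its use of strand are not given in the sources used here, so reads of a gene and an antisense or overlapping partner cannot be told apart. The deposited counts were used for every test, and the authors' deposited FPKM only to rank genes per length. The 5 rows that count reads assigned to no gene were left out, with 6.96% to 11.2% of reads on the largest of them. Testing was limited to genes averaging 1 CPM or more over the 8 libraries and used edgeR 4.0.16 (R 4.3.3, TMM scaling, quasi-likelihood), with diet as the term and calls at a Benjamini-Hochberg adjusted p under 0.1. The depot difference was an interaction term over the 17 wild type libraries. No pair of libraries of a group agreed within counting noise. The smallest inguinal library held 37860966 counted reads, which sets the precision at low CPM. The script was tested on simulated counts with known changes.

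The gene lists were written from general knowledge, and the lists, the rules and the choice of these samples were made with earlier results of these data known. Named genes were the 10 largest changes in each direction among protein-coding genes with no overlap and at least 5 CPM in the higher group, the 5 with the smallest adjusted p, the 5 largest depot differences, the 4 largest called members of a described list with its defining genes, and a few set adipocyte genes. Other genes, the hepatocyte list and the group of 12 genes per direction with at least 5 CPM on both diets were chosen after their values had been seen. Alternatives were DESeq2 1.42.0 and its size factors, no filter on low counts or 1 CPM in every library, all 11 inguinal libraries in 1 fit, a replicate block, the header series as a term or restricted to one series, a threshold of 0.05, and each library left out in turn. A few genes that these rules would name are not reported here.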

Additional observations from a re-analysis of the deposited data

Results flagged for a closer look

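Of 225 genes named in the report, 36 had 1 HFD library that stood apart from the other 4 by Dixon's criterion, which chance gives in about 1 in 20 groups. In 24 of them HFD 5 was apart, and 22 of these had HFD 5 at the top. Most of those are lymphocyte or lymph node genes: HFD 5 measured 7.75 CPM for *Cd22*, 7.06 for *Ms4a1*, 4.49 for *Fcer2a*, 41.2 for *Pax5*, 8.47 for *Cd3e*, 21.8 for *Tcf7*, 10.5 for *Lef1*, 22.7 for *Ltb*, 21.1 for *Gimap3*, 0.849 for *Glycam1*, 8.41 for *Ccl21a*, 1.49 for *Ccl19* and 9.15 for *Ccl22*. MHC class II genes were apart in the same library, at 13.1 CPM for *Ciita*, 3.36 for *H2-Oa*, 11.4 for *H2-Ob* and 4.91 for *H2-DMb2*, as were *Dsc3* (0.787) and the BMP antagonist *Grem1* (0.683). Adipocyte genes in which HFD 5 lay above the others were *Cfd* (2117), *Ppargc1a* (7.52) and *Bcat2* (138), and it lay below them for *Cd36* (5463) and the lysosomal protease *Ctsd* (625).

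HFD 4 stood above the others for the chemokines *Ccl2* (33.9 CPM) and *Ccl7* (30.0), for the resident macrophage gene *Pf4* (81.2), for the stromal genes *Fn1* (644), *Cd248* (124.8), *Pdgfra* (58.7) and *Mmp9* (5.29) and for *Krt14* (0.844), and below them for *Sfrp5* (315). HFD 1 was apart for *Saa3* (55.3 CPM) and *Pdk4* (413), and HFD 2 for *Lpl* (21232).

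Of 18 genes whose depot difference the report gives, 13 differed between inguinal and epididymal fat in the interaction test (edgeR, adjusted p under 0.1). Over all 15070 genes of that test, 18.0% had the iWAT change above and 16.7% below. The 18 genes were named with earlier results of these data known, so their count does not describe the depots. The log2 diet change in iWAT was above that in eWAT by 1.08 for *Adipoq*, 1.50 for *Lep*, 1.62 for *Cdh5*, 1.94 for *Vwf*, 2.12 for *Npr3*, 2.57 for *Mest* and 2.72 for *Slc16a12*. The difference was -1.84 for *Cd68*, -2.09 for *Mki67*, -2.76 for *H2-DMb1*, -3.11 for *Cd74*, -3.86 for *Cox8b* and -11.01 for *Ucp1*.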

How the results depend on the processing

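The count of genes called moved by over 1.5 times only where the header series entered: 2063 were higher and 1810 lower with it as a term, and 1122 and 1559 in the 4 libraries of one series, both of which leave HFD 5 as the only HFD library that informs the diet. In the other alternatives it was between 3460 and 4588 higher and between 3437 and 4598 lower. Leaving out single libraries gave 3460 to 4138 higher and 3437 to 4253 lower. The depot difference stayed within 1.5 times its 5238 genes in the alternatives run for it, while a minimum of 1 CPM in every library, all 11 inguinal libraries in 1 fit and the libraries of one series were not run for it. Same-numbered libraries of the 2 diets did not vary together in each pair (correlations of 0.380, 0.118 and 0.033), so the numbers were not taken to pair them, and a fit with the replicate block called 3634 higher and 3540 lower.

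For the 225 named genes, 3549 of 3732 refits kept direction and side of the threshold, 154 lost the call, 10 gained it and 19 turned sign. Most of the lost calls fell where the header series entered, so the pooled figure understates the losses in those fits. Those that turned included muscle genes without ND 1 (over single libraries left out, *Acta1* ran from -4.19 to 0.63, *Pvalb* from -4.05 to 0.29 and *Xirp2* from -4.96 to 0.56). The others had not passed the threshold: *H2-DMb1* (-0.26 with the header series and in one series, and -0.069 to 0.32 with single libraries left out), *Mki67* (-0.0038 with the replicate block, -0.37 with the header series, -0.36 in one series, -0.056 to 0.45 with single libraries left out), *Lipe* (-0.0053 to 0.17) and *Pnpla2* (-0.0044 to 0.16) with single libraries left out, and *Srebf1* (0.029 with no filter, 0.014 with the header series, 0.021 in one series, -0.13 to 0.068 with single libraries left out). The cause was not tested. With 3 ND libraries, of which ND 3 was highest for *Ucp1* and ND 1 for muscle genes, the size of a change that rests on the ND mean is uncertain.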
